A study of Homo sapiens with 8 samples.

Results

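The 10 genes described here, MTOR, RPTOR, DEPTOR, TSC1, TSC2, DDIT4, RRAGC, RRAGD, SLC38A9 and SESN1, encode subunits and amino acid sensing regulators of mTORC1. They were taken from a list of mTORC1, TSC and Rag pathway genes. All 10 were found among the 23393 gene symbols of the read-count table, and all 10 passed the expression filter that left 15262 genes to test.

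Read counts from RNA-seq were deposited for MDA-MB-231, an established human breast cancer line with little ASS1, the enzyme a cell needs to make its own arginine. The 4 groups of 2 libraries each were parental control cells, parental cells deprived of arginine for 48 h, ρ0 control cells and ρ0 cells deprived of arginine for 48 h. For both starved groups the labels name arginine deiminase (ADI), an arginine-degrading enzyme, at 0.3 µg/mL in full medium, whereas the study's methods describe an arginine-starved medium. All 4 groups are described as grown in high-glucose DMEM with 10% FBS and antibiotics. The arginine-starved medium of the study's methods instead held dialyzed FBS and added glutamine and lysine. Had it been used, a change of serum could not be told apart from starvation. The ρ0 cells (clone 27) lack mitochondrial DNA and, per the study's methods, were kept with sodium pyruvate, uridine and ethidium bromide. A comparison of ρ0 with parental cells is therefore a comparison of 1 clone with its parental line, in which the loss of mitochondrial DNA, the history of the clone and the supplements cannot be told apart. No label says that the 2 libraries of a group came from separate cultures, so p-values measure only the spread between these libraries.

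The libraries held 25259503 to 31022155 counts. Levels are given in CPM, the counts scaled to library size after TMM normalization, and 1 CPM stood for 24.1 to 33.4 counts. The 2 ρ0 control libraries differed most from each other. Their biological coefficient of variation was 25.0%, and that of the other pairs was 1.84% to 5.16%. The labelled line was checked on its markers. VIM, CD44, AXL and CAV1 summed to 1989 CPM or more in every library, ESR1 had 6 counts or fewer and PGR 1 or none. EPCAM and CDH1, which this mesenchymal line is known to express little, had 15 and 2 counts or fewer in the parental libraries, but 397 to 697 and 104 to 457 counts in the ρ0 libraries. The treatment was checked on 5 genes of the ATF4 program, which cells switch on when amino acids run short. All 5 rose in starved ρ0 cells, and 4 rose in starved parental cells, against 19.2% and 30.4% of all tested genes. Among these 4 was ASNS, the asparagine synthetase gene, with log2 fold changes of 2.37 in parental and 2.97 in ρ0 cells. Its ρ0 control libraries differed, at 34.8 and 69.8 CPM. ATF4 itself went from a mean of 161 to 540 CPM in parental cells and from 172 to 320 CPM in ρ0 cells. For the responses of ρ0 minus parental cells, 1 of the 5 was higher and 1 lower (adjusted p under 0.05, edgeR), against 21.6% and 18.8% of all tested genes. TRIB3 had log2 fold changes of -0.09 in parental cells (adjusted p = 0.8, edgeR) and 1.81 in ρ0 cells. In bulk RNA, a change in the share of cells that express a gene and a change in RNA per cell cannot be told apart.

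mTORC1 is a kinase complex that promotes protein synthesis and growth and restrains autophagy. Amino acids bring it to the lysosomal surface through heterodimers of Rag GTPases, in which RRAGA or RRAGB pairs with RRAGC or RRAGD, held there by the Ragulator complex. At the lysosome the GTPase RHEB activates it, and the TSC1-TSC2 complex switches RHEB off. Arginine is sensed inside the lysosome by SLC38A9 and in the cytosol by CASTOR1, leucine by the sestrins, and the cytosolic sensors act through GATOR2 and GATOR1. These steps work on proteins, and the counts describe only the mRNAs that encode them.

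The tests that follow are edgeR's quasi-likelihood test with Benjamini-Hochberg adjustment over all 15262 genes. A gene was said to rise or fall when its adjusted p was under 0.05. The spread of each gene was estimated once over all 4 groups, so the ρ0 control pair also enters the p-values of the parental responses. After arginine starvation of parental cells, 4 of the 10 genes rose (RRAGC, SLC38A9, RRAGD and MTOR) and 2 fell (TSC2 and DEPTOR). Of all tested genes, 30.4% rose and 35.5% fell by the same rule, so the 4 of 10 that rose were near the background. The count of falling genes was 5 under upper quartile scaling and under total counts, 4 in the fit to the 2 groups alone and 2 to 5 with a library left out, and is not read against the background. In ρ0 cells 4 rose (RRAGC, RRAGD, DDIT4 and SLC38A9) and 1 fell (TSC2), against a background of 19.2% and 22.1%. These counts were 2 and 0 in the fit to the 2 groups alone, where 3127 of 14127 tested genes passed, 1462 of them higher. Among DEGs, whose log2 fold change also lay beyond 1 in either direction, the parental response held RRAGC and TSC2, against a background of 12.7% higher and 22.1% lower, and the ρ0 response held none of the 10, against 4.22% and 8.19%.

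**Figure D1:**
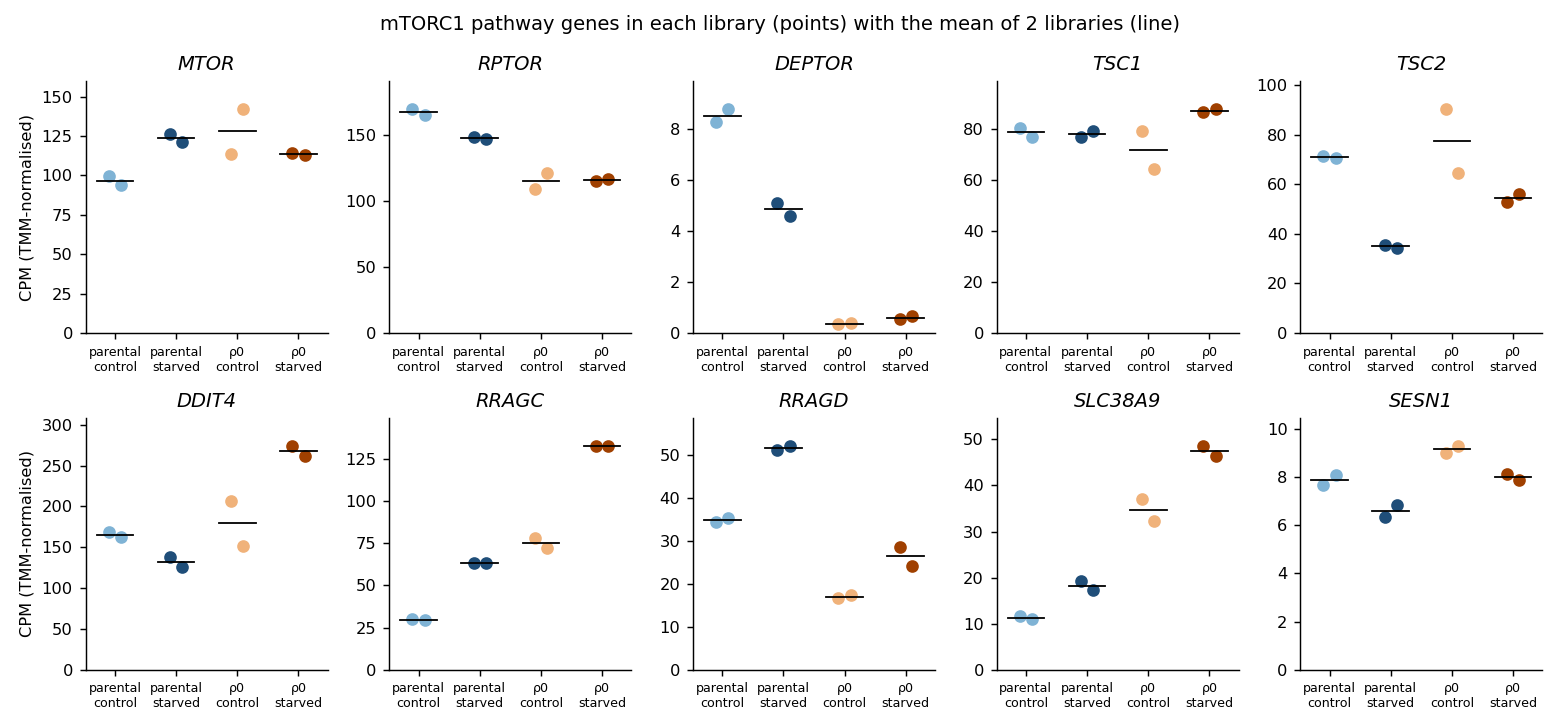
Level of each of the 10 genes in CPM (y axis from 0, 1 scale per gene) in the 4 groups, with a point for each of the 2 libraries and a line at their mean. RRAGC, RRAGD and SLC38A9 stood higher in starved than in control libraries of both lines without overlap. TSC2 and SESN1 stood lower, and DEPTOR was near 0 in all 4 ρ0 libraries. The share of all genes without overlap was not counted.

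The 2 Rag GTPases of the list rose in both lines. RRAGC, which encodes one of the small GTPases of the Rag heterodimer, was at 29.9 and 29.7 CPM in the parental control libraries and at 63.0 and 63.3 CPM in the starved ones. The ρ0 control libraries held 78.1 and 71.9 CPM and the ρ0 starved libraries 133 and 132 CPM. No library of a starved group overlapped with its control, and the ρ0 control libraries were already above the starved parental ones. The log2 fold change after starvation was 1.08 in parental cells (standard error, SE, 0.08, adjusted p = 2.47e-05, edgeR) and 0.82 in ρ0 cells (SE 0.07, adjusted p = 0.000289, edgeR). The difference between these responses, ρ0 minus parental, was -0.26 (95% interval -0.51 to -0.01, adjusted p = 0.0865, edgeR) and did not pass the test. It was -0.20 and -0.35 when 1 or the other ρ0 control library was left out.

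RRAGD encodes the paralog that can take the place of RRAGC in the heterodimer. It was at 34.4 and 35.4 CPM in parental control and 51.1 and 52.0 CPM in parental starved libraries. The ρ0 libraries were lower throughout, at 16.7 and 17.3 CPM in control and 28.5 and 24.1 CPM after starvation. The rises were alike in size, with log2 fold changes of 0.57 in parental (SE 0.10, adjusted p = 0.00198, edgeR) and 0.63 in ρ0 cells (SE 0.11, adjusted p = 0.00311, edgeR). Their difference was 0.07, with a 95% interval of -0.28 to 0.41. The paralogs rose with starvation in each line, while RRAGC was higher and RRAGD lower in the ρ0 line.

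SLC38A9, the lysosomal transporter-like protein that senses arginine and signals to the Rag GTPases, was at 11.6 and 11.01 CPM in parental control and 19.2 and 17.3 CPM in parental starved libraries. In ρ0 cells it was at 37.1 and 32.3 CPM in control and 48.6 and 46.4 CPM in starved libraries. Starved and control libraries did not overlap in either line. The log2 fold changes were 0.69 in parental (SE 0.11, adjusted p = 0.00122, edgeR) and 0.45 in ρ0 cells (SE 0.11, adjusted p = 0.0135, edgeR). The ρ0 rise lost its call in the fit to the 2 groups alone and when either ρ0 starved library was left out, with adjusted p-values of 0.0603, 0.0968 and 0.0648 (edgeR).

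Promoter sequences of these genes are shown because RRAGC and SLC38A9 rose together in both lines, and because RRAGC carries a motif that SLC38A9 lacks. They come from RefSeq on GRCh38.p14 and are printed in the direction of transcription, as the 250 bases before the annotated start. RRAGC lies on the minus strand, at chr1:38859773-38860022. SLC38A9 lies on the minus strand, at chr5:55712336-55712585, the first of its 3 listed starts. Capitals mark CACGTG, the core of the element that TFEB and TFE3 are known to bind at lysosomal genes.
RRAGC: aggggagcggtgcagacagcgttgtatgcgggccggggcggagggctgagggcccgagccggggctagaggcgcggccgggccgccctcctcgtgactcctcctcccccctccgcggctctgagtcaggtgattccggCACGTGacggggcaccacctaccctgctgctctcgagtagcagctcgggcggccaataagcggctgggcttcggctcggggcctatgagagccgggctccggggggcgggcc
SLC38A9: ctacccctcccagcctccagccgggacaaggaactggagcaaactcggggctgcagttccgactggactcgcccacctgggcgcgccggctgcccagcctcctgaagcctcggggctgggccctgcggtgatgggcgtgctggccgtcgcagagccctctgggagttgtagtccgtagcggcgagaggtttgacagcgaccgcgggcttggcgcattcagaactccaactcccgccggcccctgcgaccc

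The RRAGC match began 112 bases before the start, and the SLC38A9 window held none. Windows of 300 bases (the 250 bases before and 50 after the start) were searched on both strands for CACGTG, for TGATGNAA, the element of ATF4 with C/EBP proteins, and for TGTTTAC, a forkhead element. CACGTG was found in 7.26%, TGATGNAA in 3.62% and TGTTTAC in 3.42% of 35116 promoters. Of the 8 listed genes with a promoter entry, RRAGC and TSC2 held CACGTG, TSC2 also held TGATGNAA, and none held TGTTTAC. RRAGD and DEPTOR had no entry. Over 67 genes of the wider pathway with an entry, 13 held CACGTG, 3 TGATGNAA and 2 TGTTTAC. A gene was counted when any of its listed starts held the motif, whereas the shares above count single promoters. The gene counts and those shares are therefore not on the same scale. A match is a description of the letters and not of a bound site.

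The TSC arm moved otherwise. TSC2, which carries the GTPase-activating part of the complex that inhibits RHEB, was at 71.3 and 70.6 CPM in parental control and at 35.6 and 34.3 CPM in parental starved libraries. In ρ0 cells it was at 90.4 and 64.4 CPM in control and 52.9 and 56.0 CPM in starved libraries. The groups did not overlap in either line, but the 2 ρ0 control libraries differed widely. TSC2 fell by 1.02 on the log2 scale in parental cells (SE 0.15, adjusted p = 0.000675, edgeR). In ρ0 cells the log2 fold change was -0.51 (SE 0.15, adjusted p = 0.029, edgeR). It was -0.24 without ρ0 control replicate 1 and -0.72 without ρ0 control replicate 2, and it lost its call in the fit to the 2 groups alone and when any 1 of the 6 other libraries was left out, with adjusted p-values of 0.0585 to 0.175 (edgeR). The difference between the lines was 0.51 (95% interval 0.02 to 1.005, adjusted p = 0.0888, edgeR). It passed the test at 0.60 under total counts, and was 0.78 and 0.26 without ρ0 control replicate 1 and 2.

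TSC1, the partner that stabilises TSC2, stayed between 64.1 and 87.6 CPM over the 8 libraries. Its parental libraries overlapped, at 80.2 and 76.7 CPM in control and 76.5 and 79.2 CPM after starvation. Its log2 fold change was -0.01 in parental (95% interval -0.26 to 0.24) and 0.28 in ρ0 cells (95% interval 0.03 to 0.53, adjusted p = 0.068, edgeR), where control libraries held 79.1 and 64.1 CPM and starved libraries 86.5 and 87.6 CPM. The ρ0 value was 0.44 and 0.15 without ρ0 control replicate 1 and 2. In parental cells TSC2 fell while TSC1 stayed within the spread of its libraries.

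DDIT4 (also called REDD1), a stress-induced protein that inhibits mTORC1 through the TSC complex, had log2 fold changes of opposite sign in the 2 lines. The parental control libraries held 169 and 163 CPM and the starved libraries 138 and 125 CPM. The ρ0 control libraries held 207 and 152 CPM and the ρ0 starved libraries 274 and 262 CPM. Starved libraries were all below control in the parental line and all above control in the ρ0 line. The parental log2 fold change was -0.33 (95% interval -0.66 to -0.00016, adjusted p = 0.0723, edgeR) and did not pass the test. It passed under upper quartile scaling and total counts and in the fit to the 2 groups alone. Over all alternatives the value ran from -0.49 to -0.26. DDIT4 rose in ρ0 cells with a log2 fold change of 0.58 (SE 0.14, adjusted p = 0.0147, edgeR). This call was lost in the fit to the 2 groups alone and without ρ0 starved replicate 1 or 2, with adjusted p-values of 0.0757, 0.0886 and 0.0645 (edgeR), and the value was 0.82 and 0.38 without ρ0 control replicate 1 and 2. The difference between the responses was 0.91 (SE 0.20, adjusted p = 0.0105, edgeR). Over 16 alternatives it lay between 0.68 and 1.16 and passed the test in 14, the exceptions being the fits without parental starved replicate 2 (0.84, adjusted p = 0.0538, edgeR) and without ρ0 starved replicate 1 (0.85, adjusted p = 0.0557, edgeR).

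The promoters of TSC2 and DDIT4 are shown as those of the TSC regulators that fell and rose in ρ0 cells. TSC2 lies on the plus strand, at chr16:2047735-2047984 (the first of its 2 listed starts), and DDIT4 on the plus strand, at chr10:72273674-72273923, both on GRCh38.p14. Capitals mark CACGTG and TGATGCAA, a match of TGATGNAA, which overlap by 2 bases in TSC2.
TSC2: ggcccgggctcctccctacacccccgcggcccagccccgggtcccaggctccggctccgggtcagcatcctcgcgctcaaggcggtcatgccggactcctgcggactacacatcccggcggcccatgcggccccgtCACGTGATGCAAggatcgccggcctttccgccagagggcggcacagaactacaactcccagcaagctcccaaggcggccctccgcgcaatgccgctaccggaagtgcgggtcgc
DDIT4: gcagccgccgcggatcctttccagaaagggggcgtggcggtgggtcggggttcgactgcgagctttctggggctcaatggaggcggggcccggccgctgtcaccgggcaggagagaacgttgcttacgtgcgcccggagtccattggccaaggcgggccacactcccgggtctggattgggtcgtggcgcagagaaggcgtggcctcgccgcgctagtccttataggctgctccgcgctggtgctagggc

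In TSC2 the 2 matches began 114 and 110 bases before the start. DDIT4 held none of the 3 motifs in its window, which says only that these letters are not there.

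Of the core complex, MTOR rose and DEPTOR fell in parental cells. RPTOR had a log2 fold change of -0.18 that did not pass the test, though it passed under some alternatives. MTOR, the kinase itself, was at 99.5 and 93.9 CPM in parental control and 127 and 121 CPM in parental starved libraries. The ρ0 control libraries held 114 and 142 CPM and the starved ones 114 and 113 CPM. Starved libraries were above control in the parental line, whereas in the ρ0 line they lay at the lower end of a wide control pair. The log2 fold change was 0.36 in parental cells (SE 0.11, adjusted p = 0.0221, edgeR) and -0.17 in ρ0 cells (95% interval -0.43 to 0.08, adjusted p = 0.246, edgeR). The parental rise lost its call under upper quartile scaling (0.24), under total counts (0.20) and when any 1 of the 4 parental libraries was left out (0.31 to 0.40). The difference between the responses was -0.53 (SE 0.16, adjusted p = 0.0305, edgeR), and it passed in 8 of 16 alternatives, between -0.68 and -0.39.

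RPTOR, the scaffold that recruits substrates to mTORC1, was at 169 and 165 CPM in parental control and 148 and 146 CPM in parental starved libraries. Its ρ0 libraries ran from 109 to 121 CPM in both conditions. The log2 fold change was -0.18 in parental (95% interval -0.37 to 0.0033, adjusted p = 0.0765, edgeR) and 0.01 in ρ0 cells (95% interval -0.18 to 0.19). The parental groups did not overlap. The parental value passed under upper quartile scaling, under total counts, with 10 counts in every library and in the fit to the 2 groups alone. It was at -0.34 to -0.15 there (adjusted p = 0.00776 to 0.0368, edgeR). Without ρ0 control replicate 1 and 2 it was -0.185 and -0.14.

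DEPTOR, an inhibitory subunit of mTORC1 and mTORC2, was the least expressed of the 10 in ρ0 cells. Parental control libraries held 276 and 253 counts (8.27 and 8.79 CPM) and parental starved libraries 129 and 130 counts (5.11 and 4.61 CPM). The 4 ρ0 libraries held 10 and 12 counts in control (0.347 and 0.386 CPM) and 16 and 16 after starvation (0.541 and 0.663 CPM). DEPTOR fell in parental cells, with a log2 fold change of -0.81 (SE 0.16, adjusted p = 0.00261, edgeR). In ρ0 cells the log2 fold change of 0.70 rested on these few counts and did not pass the test (95% interval -0.10 to 1.49, adjusted p = 0.141, edgeR). The difference between the responses was 1.51 (SE 0.31, adjusted p = 0.00812, edgeR), and it passed in all 16 alternatives, between 1.35 and 1.64.

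SESN1, a sestrin of the family that binds leucine and GATOR2, was at 7.68 and 8.09 CPM in parental control and 6.34 and 6.84 CPM in parental starved libraries. In ρ0 cells it was at 8.98 and 9.29 CPM in control and 8.11 and 7.87 CPM in starved libraries. Starved libraries were lower in both lines without overlap, but neither log2 fold change, -0.26 (adjusted p = 0.105) and -0.19 (adjusted p = 0.247, edgeR), passed the test. The parental value passed under upper quartile scaling (-0.38) and under total counts (-0.42), and was -0.26 without ρ0 control replicate 1. The ρ0 value passed in none of the 17 alternatives. SESN1 had 160 to 289 counts per library.

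**Figure D2:**
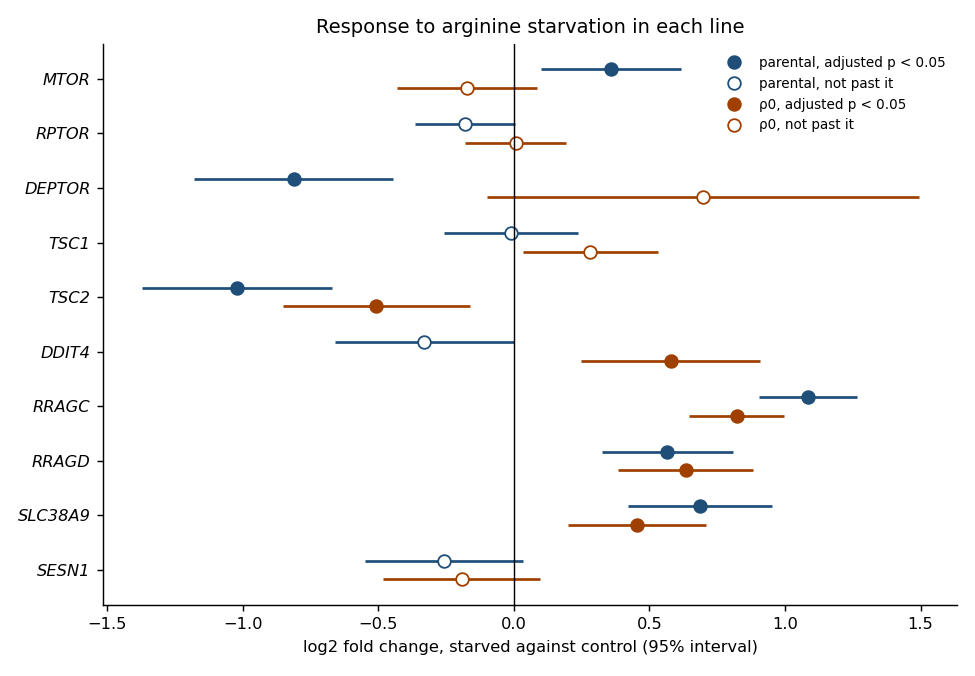
Log2 fold change of each gene, starved against control, in parental (blue) and ρ0 cells (brown), with 95% intervals; filled points had an adjusted p under 0.05. RRAGC, RRAGD and SLC38A9 lay right of 0 and TSC2 left of 0 in both lines, whereas DDIT4 lay at -0.33 in parental and 0.58 in ρ0 cells.

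The responses differed between the lines in 3 of the 10 genes, with DEPTOR and DDIT4 higher in ρ0 than in parental cells and MTOR lower. Of all tested genes, 21.6% differed toward a higher and 18.8% toward a lower response in ρ0 cells. The intervals of the other 7 genes left room for differences, the widest being 0.02 to 1.005 for TSC2. The ρ0 response and the difference share the ρ0 control libraries, whose spread was the largest of the 4 groups.

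**Figure D3:**
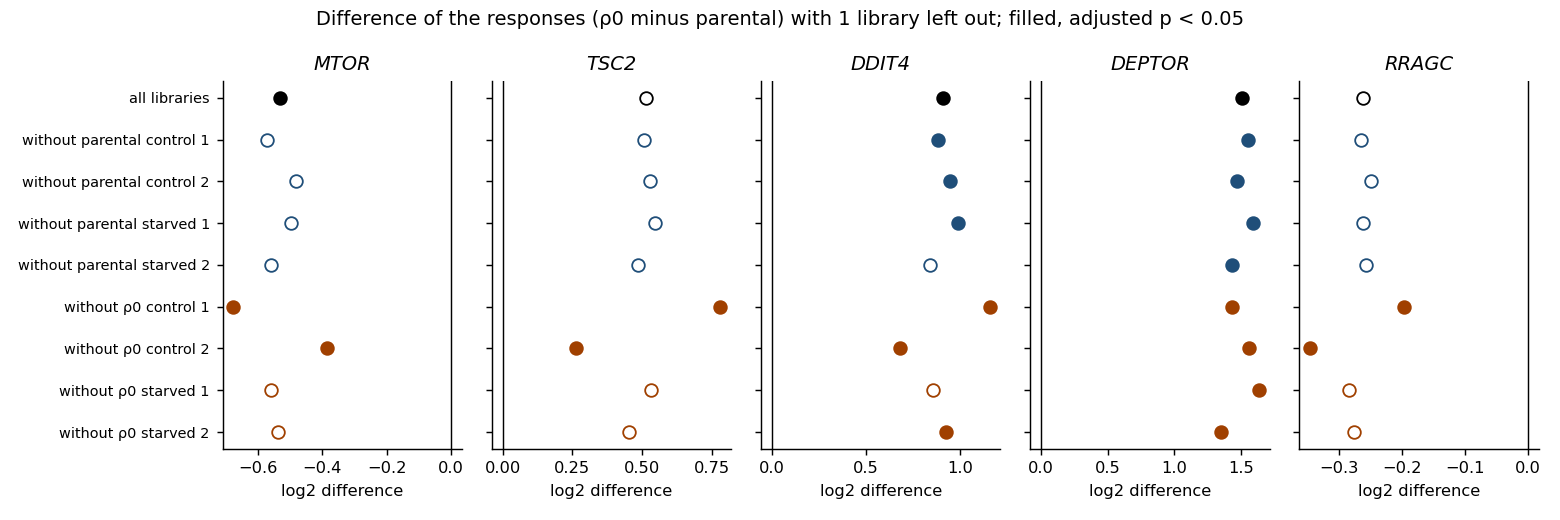
Difference of the log2 responses, ρ0 minus parental, for 5 genes with all libraries (black) and with each library left out in turn (blue, parental; brown, ρ0); filled points had an adjusted p under 0.05, and each panel has its own x axis. In the fits drawn, the DEPTOR difference passed throughout and the MTOR difference ran from -0.68 to -0.39. The filled points of TSC2 and RRAGC are fits without a ρ0 control library, where the widest pair no longer enters the spread.

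Between the lines in control medium, 3 genes were higher in ρ0 cells (SLC38A9, RRAGC and MTOR) and 3 lower (DEPTOR, RRAGD and RPTOR). Of all tested genes, 30.5% were higher and 31.8% lower, and 13.6% and 17.3% were so with a log2 fold change beyond 1, as were SLC38A9 and RRAGC above and DEPTOR and RRAGD below. SLC38A9 stood at a log2 fold change of 1.62 (SE 0.11) and RRAGC at 1.33 (SE 0.08), with adjusted p-values of 2.08e-05 and 9.17e-06 (edgeR). RRAGD stood at -1.04 (adjusted p = 0.000117, edgeR) and RPTOR at -0.54 (adjusted p = 0.000753, edgeR). DEPTOR stood at -4.52 (SE 0.21, adjusted p = 3.77e-06, edgeR), so that the ρ0 control level was 0.0435 of the parental one. MTOR, at 0.40 (adjusted p = 0.0141, edgeR), was the smallest of the 6, and its call was lost in the fit to the 2 groups alone and without parental control replicate 1 or 2 (adjusted p = 0.0779, 0.0515 and 0.0932, edgeR).

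After starvation, 4 genes were higher in ρ0 cells (SLC38A9, RRAGC, DDIT4 and TSC2) and 3 lower (DEPTOR, RRAGD and RPTOR), against 32.9% and 33.5% of all tested genes. With a log2 fold change beyond 1 there were 3 higher and 1 lower, against a background of 18.7% and 16.8%. The log2 fold changes were 1.38 for SLC38A9, 1.07 for RRAGC, 1.03 for DDIT4 and 0.64 for TSC2, and -3.01 for DEPTOR, -0.97 for RRAGD and -0.35 for RPTOR. The RPTOR call was lost without either ρ0 starved library (adjusted p = 0.0629 and 0.0556, edgeR). DDIT4 and TSC2 differed between the lines in the starved libraries, with adjusted p-values of 0.000482 and 0.00662 (edgeR), but overlapped between them in control medium, at 0.12 and 0.13. Both of these control values changed sign without ρ0 control replicate 1, to -0.12 and -0.14.

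The summed level of markers of other cell types differed with the line and with starvation. ESR1, PGR, EPCAM, CDH1, PTPRC and PECAM1 summed to 2.01 to 2.07 CPM in parental control and 0.119 to 0.213 CPM in parental starved libraries, but to 38.4 to 43.1 CPM in ρ0 control and 21.3 to 25.2 CPM in ρ0 starved libraries. Of the 4 of these 6 genes that were tested, 3 were higher in ρ0 cells in either medium. Of all tested genes, 30.5% were higher in control and 32.9% in starved cells. Most of each ρ0 sum came from EPCAM and CDH1, so the sums do not show a shift of all these markers. PTPRC and ESR1 had lower means in ρ0 control cells, at 0.314 and 0.0842 CPM. Their means in parental control cells were 0.391 and 0.142 CPM. PECAM1 had a higher mean in ρ0 than in parental control cells. CDH1, with 2 counts or fewer in each parental library, passed the expression filter only through the ρ0 libraries. In starved parental libraries all 4 tested markers had 2 counts or fewer, so the calls of these markers are not read as a result. PGR was at 0 in 7 of the 8 libraries. The 4 markers of the line itself were also all higher in ρ0 cells, and 3 of them fell in starved parental cells. Their part in the differences between the lines and in the responses was not tested.

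**Figure D4:**
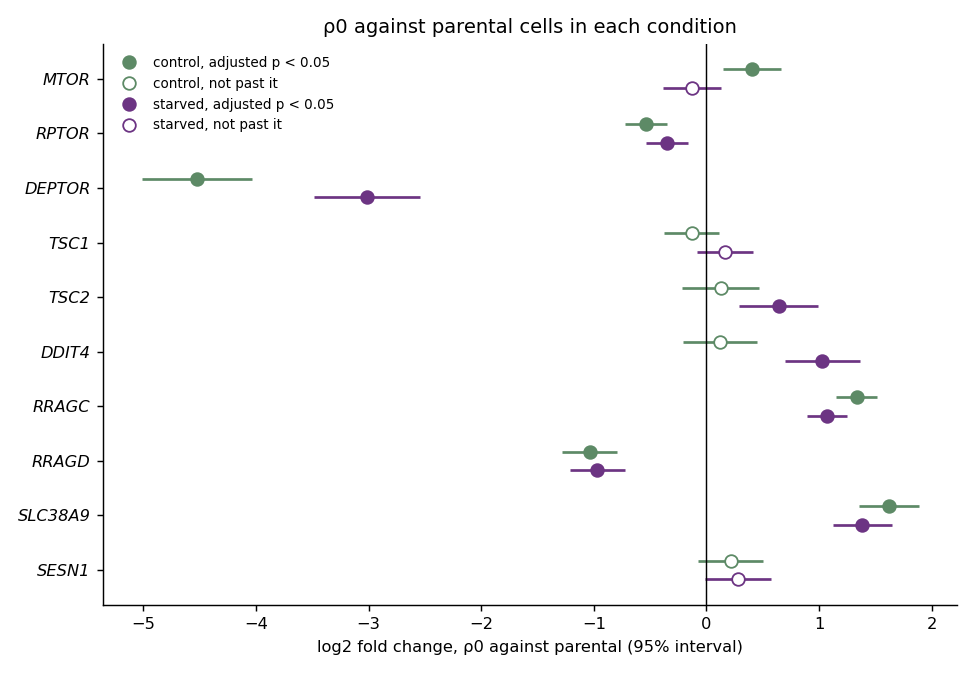
Log2 fold change of each gene, ρ0 against parental, in control (green) and starved cells (purple), with 95% intervals; filled points had an adjusted p under 0.05. DEPTOR stood apart at -4.52 and -3.01, RRAGC and RRAGD lay on opposite sides of 0, and DDIT4 and TSC2 were past the threshold in starved cells, with 1.03 and 0.64.

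Levels of different genes were compared per kilobase of exon, since longer genes collect more reads. DDIT4 was the most abundant of the 10 in every group on this scale, at 94.8 CPM per kilobase in parental control, 75.4 in parental starved, 103 in ρ0 control and 153 in ρ0 starved cells. RRAGC had rank 3 in parental control cells, at 10.9 CPM per kilobase, and rank 2 in the other groups, at 23.1, 27.4 and 48.5. RRAGD was below RRAGC in every group, at 7.11, 10.5, 3.46 and 5.37 CPM per kilobase. SLC38A9 had rank 9 in parental control cells, at 3.23 CPM per kilobase, within the spread of DEPTOR at 3.32, and rank 4 in ρ0 starved cells, at 13.6. MTOR and TSC2 in parental control cells (10.2 and 10.0), SLC38A9 and TSC2 in parental starved cells (5.21 and 4.93) and TSC2 and SLC38A9 in ρ0 control cells (10.9 and 9.93) were neighbours that did not differ beyond their spread. SESN1 and DEPTOR held the last places in 3 groups, and in ρ0 cells DEPTOR was at 0.143 and 0.234 CPM per kilobase.

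The other genes of the pathway were counted by lists of the complexes, which include the 10 genes where they belong. The counts are to be read against the shares of all tested genes, of which 30.4% were higher and 35.5% lower in parental cells and 19.2% and 22.1% in ρ0 cells. The list of Rag GTPases, Ragulator and their lysosomal partners had 7 of 13 genes higher (53.8%) and 1 lower (7.69%) in starved parental cells, with a median log2 fold change of 0.57 against -0.07 over all tested genes. In ρ0 cells 7 were higher (53.8%) and 2 lower (15.4%), with a median of 0.37 against -0.02. The higher genes include RRAGC, RRAGD and SLC38A9 in both lines. Of the Ragulator genes, LAMTOR3 went from a mean of 21.2 to 41.8 CPM in parental cells. LAMTOR1, LAMTOR2, LAMTOR4 and LAMTOR5 went from 75.0 to 72.5, 30.3 to 27.6, 34.7 to 30.9 and 85.4 to 79.4 CPM. In ρ0 cells the means of LAMTOR2 and LAMTOR3 were higher after starvation and those of LAMTOR1, LAMTOR4 and LAMTOR5 lower. FLCN, FNIP1 and FNIP2, which form the folliculin complexes that act on RRAGC and RRAGD, rose in parental cells with log2 fold changes of 0.88, 1.34 and 0.91. In ρ0 cells FLCN and FNIP1 rose by 0.41 and 0.56, and FNIP2 was at 0.11 and did not pass. RRAGB fell in both lines, from 11.9 and 11.1 CPM to 2.93 and 3.86 CPM in parental cells (log2 fold change -1.76) and by 0.69 on the log2 scale in ρ0 cells. RRAGA, the more abundant partner at 42.2 to 81.2 CPM, had log2 fold changes of 0.11 and -0.08 and passed in neither line.

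In the TSC-RHEB list, 1 of 7 genes was higher (14.3%) and 2 lower (28.6%) in parental cells, and 1 was higher and 1 lower (14.3% each) in ρ0 cells. The medians were -0.33 and -0.04. The parental median was -0.54 without DDIT4L, the paralog of DDIT4, whose 0 or 1 counts per parental library allow no fold change. RHEB, the activator of mTORC1, rose in parental cells by 0.25 (adjusted p = 0.0392, edgeR) and was at -0.04 in ρ0 cells. TBC1D7, a further subunit of the TSC complex, fell in parental cells, with a log2 fold change of -0.79, and was at 0.18 in ρ0 cells.

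Of 12 subunits and assembly factors of mTORC1 and mTORC2, 3 were higher and 3 lower in parental cells (25.0% each), and 2 were higher (16.7%) and 4 lower (33.3%) in ρ0 cells. The medians were -0.11 and 0.08, and the parental one was -0.04 without PRR5, which was at 0 or 1 counts there. MLST8, a subunit of both complexes, fell in both lines, with log2 fold changes of -1.20 and -0.58. AKT1S1 (PRAS40), an inhibitory subunit of mTORC1, rose in parental cells by 0.59 and was at 0.24 in ρ0 cells. RICTOR, the scaffold of mTORC2, was at -0.04 in parental cells and rose in ρ0 cells by 0.85, from 139.9 and 103 CPM to 219 and 219 CPM. TTI2, an assembly factor of mTOR and related kinases, had the largest rise of this list in parental cells (0.63), and TELO2, of the same assembly complex, the largest fall in ρ0 cells (-0.68). PRR5, an mTORC2 subunit, rose in ρ0 cells from 2 and 9 counts to 24 and 18, with a log2 fold change of 2.07, and had 1 count or none in parental libraries. It passed the expression filter only through the starved ρ0 libraries, where it was highest. Its call, 1 of the 2 higher ones in ρ0 cells, was thus favoured by the filter and is not read as a result.

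The GATOR1, GATOR2 and KICSTOR list had 4 of 12 genes higher and 4 lower in parental cells (33.3% each) and 3 higher (25.0%) and 5 lower (41.7%) in ρ0 cells, with medians of -0.18 and 0.03. KICS2 and KPTN, both KICSTOR subunits, moved apart. KICS2 rose by 0.53 and 1.10 on the log2 scale, and KPTN had log2 fold changes of -1.53 and -1.44. No gene of this list differed between the lines in its response by edgeR, DESeq2 or limma-voom, and 4, 3 and 4 of them had an unadjusted p under 0.05. Some of these genes had wide ρ0 control pairs, at 70.8 and 114 CPM for SEH1L and 23.1 and 14.7 CPM for WDR59. The absence of a call therefore does not show equal responses. Of all tested genes, 21.6% differed toward a higher and 18.8% toward a lower response by edgeR.

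Among 7 tested amino acid sensors, 3 were higher in each line (42.9%), and 1 was lower in parental cells (14.3%). The medians were 0.08 and 0.22. SESN2, a sestrin induced by ATF4, rose with log2 fold changes of 0.82 (adjusted p = 0.0414, edgeR) and 1.20 (adjusted p = 0.0151, edgeR), unlike SESN1. Its ρ0 control libraries differed, at 11.8 and 25.2 CPM, against 42.3 and 42.8 CPM after starvation. SESN3 was at -0.75 in parental cells (adjusted p = 0.0519, edgeR) and -0.01 in ρ0 cells. CASTOR1, the cytosolic arginine sensor (GATSL3 in the table), went from 4.89 and 4.48 CPM to 0.950 and 1.42 CPM in parental cells, with a log2 fold change of -1.97 (adjusted p = 0.00274, edgeR). In ρ0 cells it was at 7.42 and 3.54 CPM in control and 6.66 and 5.80 CPM in starved libraries, with a log2 fold change of 0.19. Of the arginine sensors, SLC38A9 rose and CASTOR1 fell in parental cells.

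Upstream, 6 of 15 genes of the PI3K, AKT, LKB1 and AMPK list were higher and 6 lower in parental cells (40.0% each), and 5 and 5 in ρ0 cells (33.3% each), with medians of -0.06 and -0.17. PDPK1, the kinase that activates AKT and S6K, rose by 1.12 and 0.50. PRKAB2, a regulatory subunit of AMPK, fell in parental cells (-0.85) and rose in ρ0 cells (0.29). PIK3R1, the regulatory subunit of PI3K, rose in parental cells (0.93) and was at -0.17 in ρ0 cells.

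Downstream, 8 of 15 tested substrates and effectors were higher (53.3%) and 4 lower (26.7%) in parental cells, and 5 and 5 in ρ0 cells (33.3% each), with medians of 0.27 and 0.26. EIF4EBP1, the translation repressor that mTORC1 inactivates, rose with log2 fold changes of 0.73 and 1.35. RPS6KB1 (S6 kinase) rose in parental cells by 0.69 and was at 0.26 in ρ0 cells, and EIF4E, the cap-binding protein held by EIF4EBP1, rose by 1.53 and 0.53. ULK1, the kinase that starts autophagy, fell in parental cells from 41.1 and 41.9 CPM to 19.6 and 18.2 CPM, and rose in ρ0 cells from 36.1 and 22.6 CPM to 79.0 and 76.0 CPM, with log2 fold changes of -1.13 and 1.40. MITF moved the other way, with 1.03 and -0.65. TFEB, a factor that mTORC1 keeps out of the nucleus and that drives lysosomal genes, rose in parental cells by 0.91 and was at 0.30 in ρ0 cells, and its relative TFE3 fell in both lines, with -0.52 and -0.26.

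**Figure D5:**
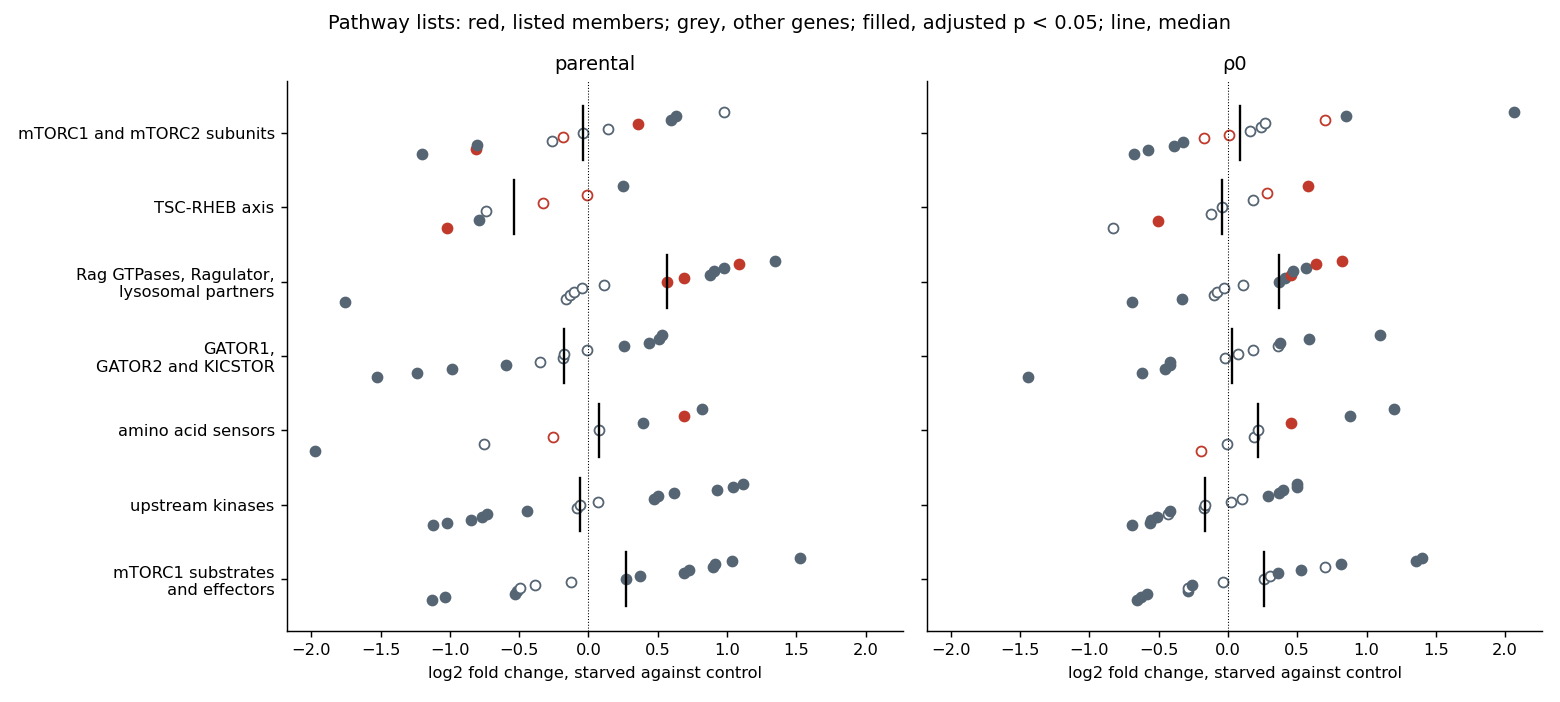
Log2 fold change after starvation for each tested gene of 7 pathway lists in parental (left) and ρ0 cells (right); red points are the 10 genes, grey points the others, filled points had an adjusted p under 0.05, and a line marks the median. PRR5 and DDIT4L are not drawn in the left panel, where they had 1 count or fewer per library, and the list of Rag GTPases, Ragulator and lysosomal partners had its median at 0.57 and 0.37.

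The patterns over the 8 libraries were compared by the root mean square difference of centred log2 CPM, among 9951 genes with a mean of at least 10 CPM. The genes nearest to DDIT4 were GGPS1 (0.0811), SUN1 and STX7, those nearest to RRAGC were DSP (0.0776), MOSPD1 and DDX6, and those nearest to RRAGD were SERP1 (0.0872), CLPX and TBC1D14. For SLC38A9 they were S100A11 (0.0670), USP9X and MAP1B, and for SESN1 OGDH (0.0414), OPA3 and GTF2H5. DEPTOR had no gene as close, with RAP1GAP2 at 0.198 followed by FGFR4 and PODXL2. RAP1GAP2 stood at 375 and 358 CPM in parental control, 181 and 177 CPM in parental starved, and 11.8 to 26.9 CPM in the ρ0 libraries. Among the 10 genes themselves, RRAGC and SLC38A9 were each other's nearest, at 0.248, and MTOR and SESN1 likewise, at 0.242, while DEPTOR was 1.39 from its nearest, RRAGD. These distances describe 8 libraries that share 4 groups and carry no test.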

How the data were processed

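RNA-seq counts of 8 libraries were analysed, 2 in each of the 4 groups (parental and ρ0, control and starved). The authors deposited 1 table of unnormalized read counts, with a row for each gene symbol. Per the submitters' processing notes, Bowtie, Partek and the build hg19 were used. Versions, the annotation and the use of strand are not given in the sources used here, so reads of overlapping or antisense genes cannot be told apart. Genes of the mitochondrial genome have no row in the table.

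For the tests, edgeR 4.0.16 in R 4.3.3 was applied to the counts (filterByExpr, TMM, quasi-likelihood test, 1 mean per group, all 8 libraries, 4 residual degrees of freedom). P-values were adjusted by Benjamini-Hochberg over 15262 genes at a threshold of 0.05, and DEGs had a log2 fold change beyond 1 as well. Standard errors are the log2 fold change over the square root of F, or, for DEPTOR in starved ρ0 cells, were derived from the p-value. Exon lengths came from GENCODE on GRCh38 by symbol and were used for levels alone. Promoter sequences came from RefSeq.

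The 10 genes, the pathway lists and the tests were chosen with earlier results of these data known. Named beside the 10 genes are 18 listed pathway genes and, for each list and starvation contrast, the largest rise and fall among genes past the threshold without overlap of groups, of which 1 gene is not reported here. Depth was 25259503 to 31022155 counts per library. Alternatives were DESeq2's size factors, upper quartile scaling, total counts, no filter, 10 counts in every library, DESeq2 1.42.0, limma-voom (limma 3.58.1), a replicate block, fits to the 2 groups compared, other thresholds and leaving out each library.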

Additional observations from a re-analysis of the deposited data

Results flagged for a closer look

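Starvation responses that differed between the lines by edgeR's interaction test were singled out among the named genes, where 21.6% of all tested genes differed toward a higher and 18.8% toward a lower response in ρ0 cells. The values are log2 differences, ρ0 minus parental. Of the 10 genes, DEPTOR differed by 1.51, DDIT4 by 0.91 and MTOR by -0.53.

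Among other subunits and regulators, RICTOR differed by 0.89, TBC1D7 by 0.97, RRAGB by 1.07 and CASTOR1 by 2.16. FLCN, FNIP1 and FNIP2, which act on RRAGC and RRAGD, all differed toward a lower response, by -0.47, -0.78 and -0.80. Of the upstream kinases, PRKAB2 differed by 1.14, PDPK1 by -0.62 and PIK3R1 by -1.10. Downstream, ULK1 differed by 2.53, EIF4EBP1 by 0.63, RPS6KB1 by -0.43, EIF4E by -1.003 and MITF by -1.69. The adjusted p-values of these 18 genes (edgeR) ran from 0.000544 to 0.0382. Several of these genes rest on ρ0 control libraries that differ from each other, among them CASTOR1 (7.42 and 3.54 CPM) and ULK1 (36.1 and 22.6 CPM). Others are RICTOR (139.9 and 103 CPM), DDIT4 (207 and 152 CPM), RRAGB (16.9 and 22.4 CPM) and EIF4EBP1 (48.6 and 62.2 CPM).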

How the results depend on the processing

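The ρ0 control pair, with the largest spread, enters every ρ0 response and, through the spread shared by the 4 groups, the parental p-values. DEPTOR had only 10 to 16 counts in ρ0 libraries, while the other 9 genes had 160 counts or more in every library. Where a library was left out, the single library left in its group was assumed to vary like the other groups. Without a ρ0 control library the widest pair no longer enters the shared spread. A call gained in such a fit is therefore not read as support. Over all alternatives, 1957 of 2206 values of single genes kept their direction and side of the threshold, 135 lost and 78 gained a call and 36 changed sign. RRAGC, RRAGD, SLC38A9, TSC2 and DEPTOR in parental cells, RRAGC and RRAGD in ρ0 cells and the DEPTOR difference passed in all alternatives run. DESeq2's size factors, DESeq2, limma-voom, no filter and 10 counts in every library moved no count of the 10 genes by over 1.5 times, and the causes of the changes that follow were not tested.

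Of the 10 genes, the 4 higher and 2 lower in parental cells became 1 and 1 with a log2 fold change beyond 1. The lower ones were 5 under upper quartile scaling, 5 under total counts, 4 in the fit to the 2 groups, and 2 to 5 with a library left out. The 4 higher in ρ0 cells became 2 in the fit to the 2 groups, 2 at an adjusted p under 0.01, 0 beyond a log2 fold change of 1, and 2 to 5 with a library left out, and the 1 lower became 0 in each of these fits and 0 to 2. The 2 higher and 1 lower for the difference became 1 and 0 at an adjusted p under 0.01, with 1 to 4 and 0 to 3 when a library was left out, and the lower one was lost (0) under upper quartile scaling and total counts. Between the lines, the 3 higher in control medium ranged from 2 to 5 with a library left out, and the 3 lower after starvation became 1 beyond a log2 fold change of 1. Upper quartile scaling moved the median of all genes to -0.19 and total counts to -0.23 in parental cells, from -0.07. Of all 15262 genes, 10060 passed in parental cells, 4637 of them higher. Under upper quartile scaling 10065 passed with 4021 higher, and under total counts 10038 with 3777 higher. In the fits to the 2 groups, 12042 of 14509 passed in parental cells with 5875 higher, and 3127 of 14127 in ρ0 cells with 1462 higher.

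Signs changed for values near 0. RPTOR in ρ0 cells went to -0.020 (upper quartile), -0.072 (total counts), -0.018 (10 counts in every library) and -0.068 to 0.098 (a library left out). TSC1 in parental cells went to 0.0022 (DESeq2's size factors), 0.00056 (no filter), 0.0022 (DESeq2), 0.021 (the 2 groups) and -0.048 to 0.027 (a library left out). RRAGA in parental cells went to -0.0090 (upper quartile) and -0.051 (total counts). SESN3 in ρ0 cells went to 0.015 (no filter), 0.12 (limma-voom), 0.0026 (the 2 groups) and -0.48 to 0.70 (a library left out). The 0.70 was without ρ0 control replicate 1. With a library left out, MTOR in ρ0 cells ranged from -0.32 to 0.0085, the RRAGD difference from -0.078 to 0.17, and in control medium between the lines TSC1 from -0.29 to 0.065, TSC2 from -0.14 to 0.40 and DDIT4 from -0.12 to 0.38. RICTOR in parental cells ranged from -0.18 to 0.11, the SESN2 difference from -0.064 to 1.004, the KPTN difference from -0.026 to 0.20, and in ρ0 cells CASTOR1 from -0.23 to 0.82, TFEB from -0.014 to 0.73 and PIK3R1 from -0.32 to 0.014.

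Deviations of same-numbered libraries correlated at -0.05 to 0.04, which gave no sign that the replicate numbers pair the samples. A pairing is not excluded by this, because the starved pairs differed little, with biological coefficients of variation of 2.29% and 1.84%. With a replicate block, the 10 genes gave 4 higher and 3 lower in parental and 4 higher and 1 lower in ρ0 cells, DDIT4 being the gene added in parental cells (-0.33, adjusted p = 0.0404, edgeR). Under the block SESN3 in parental cells gained a call (-0.75), those of RHEB in parental cells (0.25), PRKAB2 in ρ0 cells (0.29) and the RPS6KB1 difference (-0.43) were lost, and SESN3 in ρ0 cells was at 0.029.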
